A study of Mus musculus with 12 samples.

Results

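Usp17le, BB287469, Tcstv1, Tcstv3, Zfp352 and Tmem92 are 6 mouse genes known for transcription at the two-cell stage of the embryo. They were taken by symbol from a table of read counts for 55335 genes, and each symbol belonged to 1 gene of that table. All 6 had enough counts to be tested, among 16468 genes that did. There are 12 libraries of mouse embryonic stem (ES) cells, with 3 for each of days 0, 2, 4 and 6. Every library carries the same growth description, with KnockOut serum replacement, the cytokine LIF and gelatin-coated plates bearing irradiated mouse embryonic fibroblasts. The labels give no genotype or agent, do not describe what the cells underwent after day 0, and do not tell whether the 3 libraries of a day are separate cultures. The spread behind each p-value is that among these libraries and may be technical.

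The two-cell stage is when the mouse embryo first transcribes its own genome in bulk, and a transient set of genes and retroelements is switched on there and silenced soon afterwards. In ES cell cultures a small, changing fraction of cells passes through a two-cell-like state in which the same set is on. The transcription factor Dux is known to drive that set directly, and Dppa2 and Dppa4 are known to act on Dux. In bulk RNA, a change in the number of such cells cannot be told apart from a change in RNA per cell.

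The genes lie on 5 chromosomes, and all positions below are from GENCODE M21 on the GRCm38 (mm10) build. Usp17le (ENSMUSG00000043073, chr7:104768049-104777470, minus strand) belongs to a family of ubiquitin-specific proteases, which remove ubiquitin from proteins. Tcstv1 (ENSMUSG00000096284, chr13:119893388-119894785, minus strand) and Tcstv3 (ENSMUSG00000095821, chr13:120316878-120318178, plus strand) are paralogs named as members of a two-cell-stage variable group. BB287469 (ENSMUSG00000079031, chr12:87816577-87820676, plus strand) encodes a protein like the translation initiation factor eIF1A. Zfp352 (ENSMUSG00000070902, chr4:90218820-90225702, plus strand) encodes a zinc finger protein. Tmem92 (ENSMUSG00000075610, chr11:94777217-94782703, minus strand) encodes a predicted membrane protein. None of the 6 overlaps another annotated gene.

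Usp17le, Tcstv1, Tcstv3 and BB287469 have copies. These share 84.8% to 94.2% of aligned coding bases with Usp17le and up to 100% with BB287469. Zfp352 has pseudogene copies, Zfp353-ps (95.1%) and Gm12633 (82.6%), which held 34 and 1 counts over the 12 libraries. How far each gene can be told from its copies sets how its counts can be read. Tcstv1 and Tcstv3 share 93.6% of aligned coding bases, with 27 substitutions between reading frames of 513 and 507 bases. A stretch of 90 coding bases, positions 368 to 457 of each frame, is printed for both and for their copy AF067061 because it is where Tcstv1 and Tcstv3 differ most. Capitals mark positions at which the sequences are not all the same.
Tcstv1: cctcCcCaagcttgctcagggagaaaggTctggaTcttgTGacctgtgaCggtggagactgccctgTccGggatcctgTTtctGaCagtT
Tcstv3: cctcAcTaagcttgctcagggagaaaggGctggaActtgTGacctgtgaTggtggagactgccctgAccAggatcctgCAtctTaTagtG
AF067061: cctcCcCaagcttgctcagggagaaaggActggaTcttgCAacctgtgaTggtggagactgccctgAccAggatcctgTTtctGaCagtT
Tcstv3 differs from Tcstv1 at 12 of these 90 bases and AF067061 at 6, so a read over the whole stretch separates the sequences shown. Other Tcstv copies were not compared over it. The stretch lies at chr13:119893638-119893727 (minus strand) in Tcstv1, chr13:120317934-120318023 (plus strand) in Tcstv3 and chr13:120264169-120264258 (plus strand) in AF067061.

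BB287469 stands at the other end. Its reading frame of 432 bases is 100% identical to that of Gm4027, a copy on the same chromosome, and differs from that of Gm8300 by 12 substitutions. The 90 coding bases in which BB287469 and Gm8300 differ most, positions 182 to 271, are shown for all 3 with the same use of capitals.
BB287469: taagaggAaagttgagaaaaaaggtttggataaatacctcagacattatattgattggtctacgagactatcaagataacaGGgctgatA
Gm4027: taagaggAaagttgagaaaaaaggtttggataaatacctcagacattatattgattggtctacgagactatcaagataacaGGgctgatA
Gm8300: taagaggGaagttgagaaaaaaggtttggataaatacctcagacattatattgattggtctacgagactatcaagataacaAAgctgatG
Only 4 of the 90 bases separate Gm8300 from the other two sequences, and none separates BB287469 from Gm4027. They lie at chr12:87819502-87819591, chr12:87621781-87621870 and chr12:87517078-87517167, all on the plus strand.

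Over whole transcripts, the share of 50-base words found in no other gene of the annotation was 98.0% for Tmem92, 92.9% for Zfp352, 83.2% for Tcstv1, 69.2% for Usp17le and 68.6% for Tcstv3. For BB287469 it was 3.4%, or 61 of 1802 words. With words of 100 bases the first 5 genes reached between 91.3% and 100%, and BB287469 reached 8.7%. How reads with several matching positions were counted, and the read length, are not given in the sources used here, so counts of BB287469 may hold reads of its copies or lack its own.

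**Figure D1:**
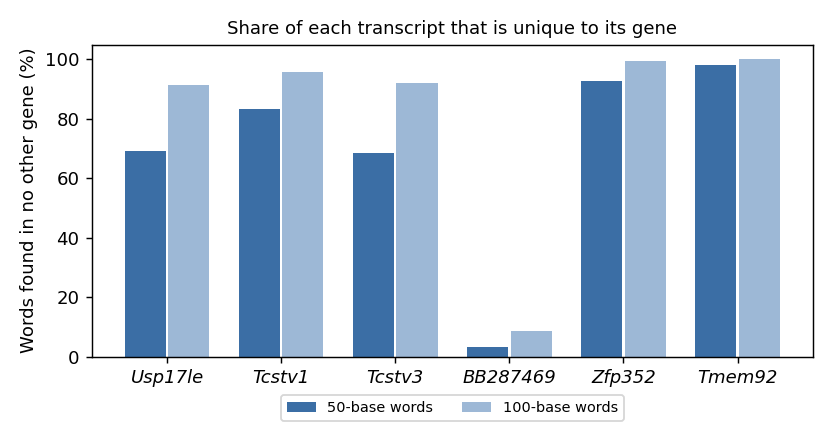
Share of all 50-base words (dark) and 100-base words (light) of the longest transcript of each of the 6 genes that occur in no other annotated gene, in percent. BB287469 stands apart at 3.4% and 8.7%, and Tmem92 and Zfp352 are nearly fully distinct.

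The 12 libraries held between 6945900 and 13266962 counts, and the 6 genes together took between 0.000738% and 0.0102% of them. The stem cell label was checked against 10 ES cell markers. Their summed level was 5630 to 5690 CPM (counts-per-million, library sizes scaled by TMM) at day 0, 1990 to 2020 at day 2, 1140 to 1160 at day 4 and 964 to 992 at day 6, and 9 of the 10 fell from day 0 to day 2, as did 33.2% of all tested genes, the exception being Lin28a, which rose. The 10 fibroblast markers, which the feeder layer could bring, summed to 28.1 to 32.3, 24.5 to 26.6, 38.2 to 42.9 and 174 to 192 CPM in the same order of days, and Lum at day 0, Dcn at day 2 and S100a4 at day 6 were at 0 counts. The 12 oocyte markers summed to 1.92 to 2.28, 3.30 to 3.91, 5.96 to 7.07 and 5.15 to 6.37 CPM, with Zp1, Bmp15 and Oosp1 at 0 on every day. The part of other cell types in the results below was not tested.

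The mean levels of all 6 genes were lowest at day 0, several-fold higher at days 2 and 4, and lower again at day 6, although days 0 and 6 of Zfp352 overlapped. Usp17le, Tcstv1 and Tcstv3 were highest at day 2, whereas the mean levels of BB287469, Zfp352 and Tmem92 were highest at day 4. In the F-test over the 4 days all 6 passed, as did 89.2% of all genes tested, with adjusted p between 5.1e-28 (Usp17le) and 3.58e-08 (BB287469).

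**Figure D2:**
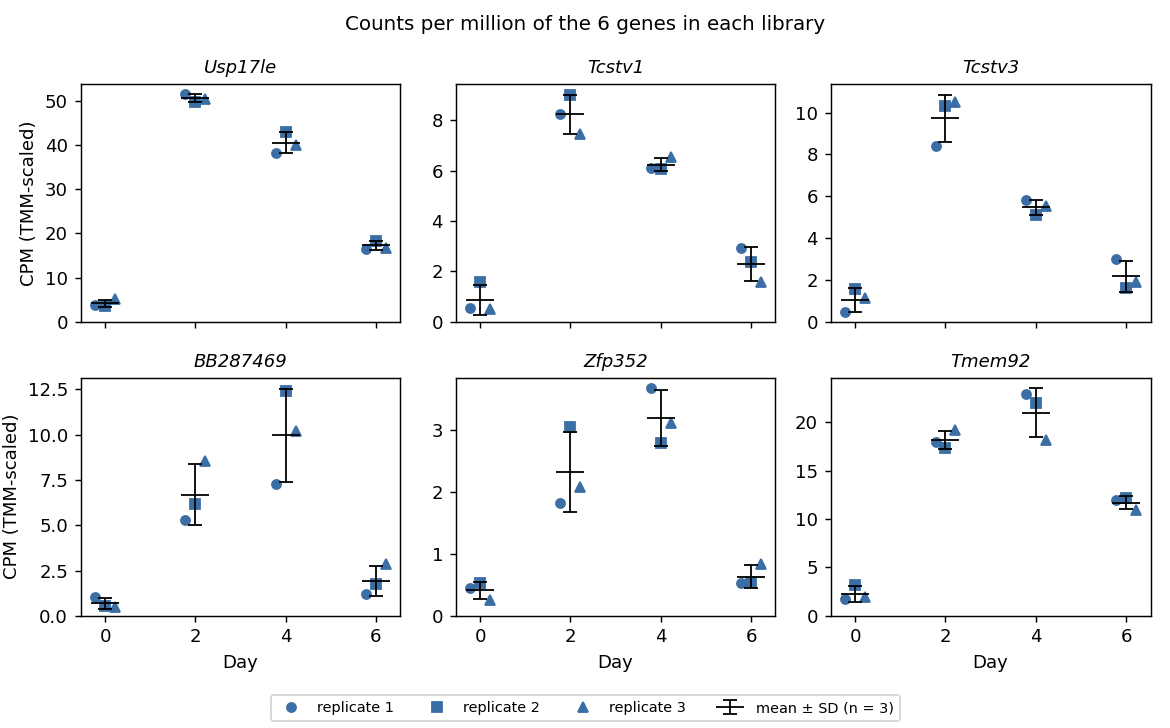
CPM (vertical axis, a separate scale for each gene) of the 6 genes in each of the 12 libraries by day (horizontal axis), with marker shape for the replicate number and bars for the mean ± SD of 3 libraries. The mean of day 0 is the lowest for each gene, and in Zfp352 days 0 and 6 overlap. Usp17le, Tcstv1 and Tcstv3 fall from day 2 to day 4, while at those days the libraries of BB287469, Zfp352 and Tmem92 overlap.

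Usp17le was the most abundant of the 6 in counts and also per length. Its 3 libraries had 3.73, 3.68 and 5.19 CPM at day 0 and 51.5, 49.8 and 50.5 CPM at day 2. At day 4 they had 38.3, 43.0 and 40.0 CPM, and at day 6 they had 16.6, 18.4 and 16.8 CPM. No 2 days overlapped, and the order from high to low was day 2, day 4, day 6, day 0. The means were 4.20 ± 0.859, 50.6 ± 0.892, 40.5 ± 2.38 and 17.3 ± 0.958 CPM (SD, n = 3) at days 0, 2, 4 and 6. Every step of that order passed the test. The rise to day 2 was 12.1-fold, or 3.59 ± 0.11 on the log2 scale (SE, adjusted p = 1.62e-27). The step from day 2 to day 4 was -0.32 ± 0.07 (adjusted p = 0.000104) and that from day 4 to day 6 was -1.24 ± 0.08 (adjusted p = 7.4e-16), which left day 6 at 4.10-fold day 0 (adjusted p = 5.31e-17).

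The Tcstv paralogs followed the same order at lower levels. Tcstv1 had 0.565, 1.58 and 0.506 CPM at day 0, from 5, 12 and 4 counts, and 8.26, 9 and 7.46 CPM at day 2. It had 6.10, 6.05 and 6.53 CPM at day 4 and 2.92, 2.38 and 1.58 CPM at day 6. Days 2 and 4 stood above the other two, and the lowest library of day 6 was level with the highest of day 0 to 3 digits. The rise to day 2 was 9.46-fold (log2 3.24 ± 0.26, adjusted p = 4.17e-14), the step to day 4 was -0.41 ± 0.16 (adjusted p = 0.0272) and the step to day 6 was -1.39 ± 0.21 (adjusted p = 8.73e-07). At day 6 Tcstv1 was still 2.71-fold day 0 (adjusted p = 0.000277). Day 0 replicate 2, with 12 counts, sets much of these folds: without it the rise to day 2 was log2 3.91 ± 0.31 (adjusted p = 1.54e-13) and day 6 against day 0 was 2.11 ± 0.41 (adjusted p = 2.37e-05), up from 1.44 ± 0.34.

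Tcstv3 had 0.452, 1.58 and 1.14 CPM at day 0 and 8.41, 10.3 and 10.5 CPM at day 2. It had 5.81, 5.09 and 5.54 CPM at day 4 and 2.99, 1.62 and 1.89 CPM at day 6. The libraries of day 2 lay above those of day 4, which lay above those of day 6. Its rise to day 2 was 9.33-fold (log2 3.22 ± 0.24, adjusted p = 1.13e-14). Of the 6 genes it had the lowest fitted value from day 2 to day 4, at -0.82 ± 0.16 (adjusted p = 4.66e-05), and it fell again to day 6 by 1.27 ± 0.22 on the log2 scale (adjusted p = 1.09e-05). Day 6 was 2.19-fold day 0 (log2 1.13 ± 0.34, adjusted p = 0.00293). That last call rested on single libraries: it was lost without day 0 replicate 1 (0.73, adjusted p = 0.0583) and without day 6 replicate 1 (0.77, adjusted p = 0.0695).

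BB287469 had 1.02, 0.525 and 0.506 CPM at day 0, from 9, 4 and 4 counts. Its libraries had 5.30, 6.19 and 8.55 CPM at day 2, 7.26, 12.4 and 10.2 CPM at day 4 and 1.20, 1.73 and 2.84 CPM at day 6. Days 2 and 4 overlapped, and both lay above day 6. The rise to day 2 was 9.32-fold (log2 3.22 ± 0.40, adjusted p = 1.09e-06). A further 1.5-fold from day 2 to day 4 passed the test (log2 0.59 ± 0.21, adjusted p = 0.0272), and the step to day 6 was -2.42 ± 0.28 (adjusted p = 1.55e-06), the lowest fitted value at that step among the 6. Day 6 was 2.61-fold day 0 (log2 1.39 ± 0.54, adjusted p = 0.0272). The rise from day 2 to day 4 did not pass without day 2 replicate 1 (0.44, adjusted p = 0.105) or 2 (0.55, 0.0921), or without day 4 replicate 2 (0.37, 0.172) or 3 (0.57, 0.0726). The difference between days 6 and 0 did not pass without day 0 replicate 2 (1.23, adjusted p = 0.0922) or 3 (1.21, 0.0933), or without day 6 replicate 2 (1.43, 0.0506) or 3 (1.01, 0.0909).

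The 250 bases before the start of BB287469 are printed because they hold letters known as the core of the Dux motif. Of the 6 genes, only BB287469 and Zfp352 had a promoter in the RefSeq set used. Usp17le, Tcstv1, Tcstv3 and Tmem92 were not searched for motifs. Capitals mark matches to TGATTNAAT, TATAA and TATATA on either strand, and the sequence is RefSeq's, GRCm38.p6, chr12:87816327-87816576, plus strand.
BB287469: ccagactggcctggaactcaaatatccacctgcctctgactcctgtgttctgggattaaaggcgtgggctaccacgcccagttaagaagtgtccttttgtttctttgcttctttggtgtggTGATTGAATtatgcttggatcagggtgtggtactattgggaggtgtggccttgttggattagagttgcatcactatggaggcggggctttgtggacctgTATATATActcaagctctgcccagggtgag
The TGATTNAAT match begins 129 bases before the start and the TATATA matches, which overlap each other, begin 30 bases before it. In windows from 250 bases before to 50 bases after a start, TGATTNAAT occurred in 0.718% of 32851 RefSeq promoters (236), TATATA in 5.7% and TATAA in 24.9%. The 2 TATA motifs overlap wherever TATATAA occurs. Among 33 two-cell genes and copies with a promoter in the table, 9 held TGATTNAAT: BB287469, Gm4027, Gm21319, AF067061, Gm21761, Zscan4b, Zscan4c, Zscan4f and Duxf3. Several of these are copies of one another, so they are not independent. The windows of BB287469 and Gm4027 shared 75.7% of aligned columns, less than their coding frames do. A match describes the letters of a window and was not tested as a binding site.

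Zfp352 had the fewest counts of the 6. Its libraries had 0.452, 0.525 and 0.253 CPM at day 0, from 4, 4 and 2 counts, and 1.82, 3.05 and 2.09 CPM at day 2. They had 3.68, 2.79 and 3.12 CPM at day 4 and 0.524, 0.540 and 0.841 CPM at day 6. Days 2 and 4 overlapped, and so did days 0 and 6, while the libraries of days 2 and 4 lay above those of days 0 and 6. The rise to day 2 was 5.52-fold (log2 2.46 ± 0.39, adjusted p = 8.57e-07) and the fall from day 4 to day 6 was 5.06-fold (log2 -2.34 ± 0.32, adjusted p = 1.52e-07). The step from day 2 to day 4 did not pass (0.46 ± 0.24, adjusted p = 0.101), although it did without day 2 replicate 2 (0.72, adjusted p = 0.0259). Day 6 was not distinguishable from day 0 at this depth (0.59 ± 0.54, adjusted p = 0.318), and Zfp352 was the only one of the 6 for which that was so.

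The 250 bases before the start of Zfp352 are printed for a repeat within them (RefSeq, GRCm38.p6, chr4:90218570-90218819, plus strand), with the single TATAA match in capitals.
Zfp352: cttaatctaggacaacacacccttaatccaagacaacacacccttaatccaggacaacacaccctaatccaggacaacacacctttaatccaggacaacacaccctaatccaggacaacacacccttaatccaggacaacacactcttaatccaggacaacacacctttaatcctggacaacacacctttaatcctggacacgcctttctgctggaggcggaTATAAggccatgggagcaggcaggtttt
The 9 letters acaacacac occur 9 times, from 239 to 73 bases before the start. They occur in 89 of the 32851 promoters (0.271%), and Zfp352 was the only promoter of the table with at least 5 copies. TATAA begins 28 bases before the start, and TGATTNAAT is not in this window.

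Tmem92 was second to Usp17le in counts. Its libraries had 1.70, 3.15 and 1.90 CPM at day 0 and 18.0, 17.4 and 19.2 CPM at day 2. They had 22.9, 22.0 and 18.2 CPM at day 4 and 12, 12.2 and 10.9 CPM at day 6. Days 2 and 4 overlapped, both lay above day 6, and day 6 lay above day 0. The rise to day 2 was 8.14-fold (log2 3.03 ± 0.16, adjusted p = 3.84e-19). The step to day 4 was small and close to the threshold (0.23 ± 0.10, adjusted p = 0.044), and the step to day 6 was -0.86 ± 0.11 (adjusted p = 1.98e-08). Day 6 stayed 5.28-fold above day 0 (log2 2.40 ± 0.18, adjusted p = 5.38e-15), at 55.7% of the level of day 4. The step to day 4 was lost without day 2 replicate 1 (0.22, adjusted p = 0.0995) or 2 (0.20, 0.112) and without day 4 replicate 1 (0.17, 0.231) or 2 (0.20, 0.146).

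Levels of different genes can be set side by side only per length, as CPM per kilobase of exon. At day 2 these were 25.5 ± 0.449 for Usp17le, 12.5 ± 1.46 for Tcstv3, 8.31 ± 0.425 for Tmem92, 5.89 ± 0.553 for Tcstv1, 3.61 ± 0.906 for BB287469 and 1.02 ± 0.285 for Zfp352 (SD, n = 3), and the libraries of neighbours in this order did not overlap. At day 4 Tmem92 (9.62 ± 1.15) stood above Tcstv3 (7.03 ± 0.464), and BB287469 (5.38 ± 1.39) overlapped Tcstv1 (4.45 ± 0.189). Usp17le was highest and Zfp352 lowest in mean level per length on all 4 days. Scaling by length does not correct for reads shared with copies. The place of BB287469, with 3.4% of its 50-base words unique, is thus uncertain.

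From day 0 to day 2, all 6 genes rose, where 34.9% of all tested genes did. All 6 rose at least 4-fold, where 4.78% did, and all 6 had day 2 libraries wholly above those of day 0, where 36.3% did. At day 0 Zfp352, BB287469, Tcstv1 and Tcstv3 had 2 to 12 counts a library, and only later days brought them enough counts to be tested. Their rises from day 0, at any day compared, are thus not independent of that filter. The same holds for the falls of Zfp352 to day 6, where it had 5 to 8 counts. The median change was 3.22 on the log2 scale over the 6 genes and 0.02 over all genes. Over all genes 5743 rose and 5473 fell at this step, a split that became 7053 and 4412 with library size alone in place of TMM, under which all 6 genes still rose. By size of the fitted rise, Usp17le ranked 235 and Zfp352 ranked 581 among 16468 genes, with the other 4 between them. Day 4 against day 0 gave 6 rises (background 37.5%) and 6 genes without overlap (38.3%), with a median of 3.09. Day 6 against day 0 gave 5 rises (background 39.4%) and 5 genes without overlap (40.2%), with a median of 1.41 and Zfp352 as the exception. These 3 comparisons share the day 0 libraries and are not independent.

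From day 2 to day 4 the 6 genes went different ways. Usp17le, Tcstv1 and Tcstv3 fell (background 24.8%), each with day 4 libraries wholly below those of day 2 (27.9%). BB287469 and Tmem92 rose (25.3%), and Zfp352 did not pass. With 3 of 6 genes one way and 2 the other, the counts give no result about the 6 genes as a set. The fall of Tcstv1 did not pass without day 2 replicate 1 (-0.42, adjusted p = 0.0558) or 2 (-0.34, 0.105), or without day 4 replicate 1 (-0.40, 0.0768) or 2 (-0.40, 0.0802). Only the falls of Usp17le and Tcstv3 kept their call in every alternative tried.

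From day 4 to day 6 all 6 genes fell, where 19.3% of all genes did, and in all 6 the libraries did not overlap, where 23.0% of genes were lower without overlap. The median change was -1.33, against 0.02 over all genes. Against day 2, day 6 was lower for all 6 genes (31.2% of all genes fell) with no overlap in any (32.7%), and the median was -1.82. The fitted difference between days 6 and 2 was -2.09 ± 0.19 for Tcstv3 (adjusted p = 1.73e-12), -1.88 ± 0.33 for Zfp352 (4.87e-06), -1.83 ± 0.29 for BB287469 (2.69e-05), -1.80 ± 0.19 for Tcstv1 (8.52e-11) and -1.56 ± 0.07 for Usp17le (1.25e-20). Tmem92 had the smallest, at -0.63 ± 0.10 (2.34e-06).

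Proportions among the genes were followed as the log2 ratio of each gene's count to that of Usp17le in the same library, with no test. A small constant was added to both counts. At day 0 the ratio was -1.42 to -0.22 for Tmem92 and -3.21 to -1.82 for BB287469, and both ranges overlap each later day. The ratio of Tmem92 was -1.52 to -1.39 at day 2, -1.14 to -0.74 at day 4 and -0.62 to -0.46 at day 6, so from day 2 on it was higher at each later day, without overlap. For BB287469 the ratio was -3.27 to -2.56 at day 2, -2.39 to -1.79 at day 4 and -3.75 to -2.55 at day 6, and day 4 did not overlap the other two of these days. That of Tcstv1 was -2.75 to -2.46 at day 2 and -2.82 to -2.60 at day 4, which overlap. Between the same days the ratios of Tcstv3 (-2.61 to -2.27, then -3.07 to -2.71) and Zfp352 (-4.80 to -4.01, then -3.93 to -3.36) did not overlap. Pearson correlations between pairs of the 6 genes over the 12 libraries, which share their depth, ran from 0.819 (Tcstv3 with BB287469, and Zfp352 with Tmem92) to 0.959 (Tcstv1 with Tcstv3).

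**Figure D3:**
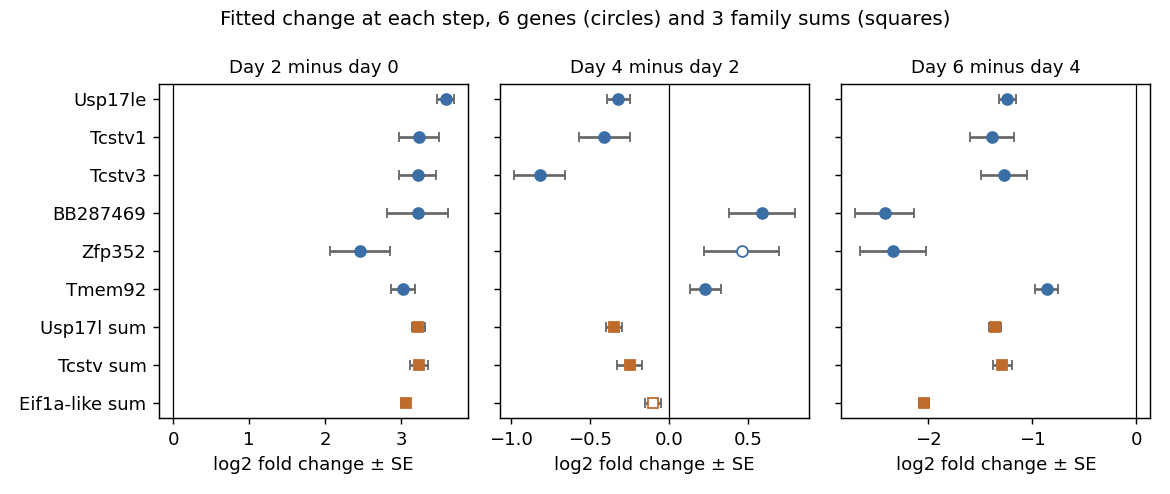
Fitted log2 change with its SE (horizontal axis, a separate scale for each panel) at the steps from day 0 to 2, 2 to 4 and 4 to 6 for the 6 genes (circles) and 3 family sums (squares), with open symbols where the adjusted p was 0.05 or more. The first step is upward and the last downward for every row. In the middle step Zfp352 and the Eif1a-like sum are open.

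Because reads can be shared, the counts of each family's copies on 1 chromosome were also summed and tested as 1 gene. The 10 Tcstv genes summed to 12.4 ± 2.95, 116 ± 8.47, 98.1 ± 7.05 and 39.6 ± 4.12 CPM at days 0, 2, 4 and 6, of which Tcstv1 and Tcstv3 held 11.6% to 15.5%. The 6 Usp17l genes summed to 12.6 ± 0.424, 118 ± 2.13, 92.7 ± 5.78 and 36.2 ± 3.66 CPM, of which Usp17le held 33.2% to 47.6%. The 18 Eif1a-like genes on chromosome 12 summed to 51.7 ± 1.01, 431 ± 25.4, 401 ± 27.6 and 97.9 ± 3.09 CPM, and BB287469 held 1.35% to 2.46% of that. The rise to day 2 was 9.42-fold for the Tcstv sum, 9.36-fold for the Usp17l sum and 8.35-fold for the Eif1a-like sum, beside 12.1-fold for Usp17le, 9.46-fold and 9.33-fold for Tcstv1 and Tcstv3 and 9.32-fold for BB287469 as single genes. At day 4 against day 0 the sums differed more from single genes, with a log2 value of 2.96 for the Eif1a-like sum against 3.81 for BB287469, and 2.99 for the Tcstv sum against 2.40 for Tcstv3.

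From day 2 to day 4 the Tcstv sum (-0.25 ± 0.08, adjusted p = 0.0192) and the Usp17l sum (-0.35 ± 0.05, adjusted p = 9.19e-07) fell. Of the tested copies beside Usp17le, Tcstv1 and Tcstv3, 3 of 5 Tcstv and 3 of 4 Usp17l copies fell at that step. Gm21761 (0.00), Gm21818 (0.04) and Usp17ld (-0.05) did not pass. Over all tested genes 24.8% fell and 25.3% rose from day 2 to day 4. The Eif1a-like sum was -0.10 ± 0.05 (adjusted p = 0.0604), opposite in sign to BB287469 and not past the threshold. At that step 3 of the 17 Eif1a-like copies rose, among them Gm4027 (0.39 ± 0.17, adjusted p = 0.046), whose coding frame is that of BB287469. Only 1 fell, Gm5039 (-0.36 ± 0.05, adjusted p = 1.25e-07), the copy with the most counts. Neither count is above the share over all genes, so they give no result about these copies as a set. All 17 copies, the 5 tested Tcstv copies and the 4 tested Usp17l copies rose from day 0 to day 2 and fell from day 2 to day 6. The shares over all tested genes were 34.9% and 31.2%. Copies scarce at day 0, such as Gm10264 (0.0377 CPM) and BC147527 (0.366 CPM), could be tested only through later days. Their rises are thus not independent of that filter, and copies can share reads. At day 2 the libraries of Gm5788 (11.3 ± 11.8 CPM) and Gm10264 (2.45 ± 2.2 CPM) were widely spread. Eif1a is a widely expressed relative of BB287469 on another chromosome and encodes eIF1A itself. Unlike the copies, Eif1a fell from 147 ± 2.58 CPM at day 0 to 82.5 ± 4.98 at day 2 (log2 -0.84 ± 0.05, adjusted p = 2.3e-17).

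Other genes of the two-cell programme were counted from lists drawn up from general knowledge, with earlier results of these data known. Their counts are a description and not independent of these data. All 9 Zscan4 family genes, a family of related copies that marks a two-cell-like state in ES cells, rose to day 2 (median 3.96) and fell from day 2 to day 6. Of 57 other two-cell genes in the count table, 37 had enough counts to be tested. Of these 37, 35 rose to day 2 and 2 did not pass, with a median of 2.99, and 33 fell from day 2 to day 6. Over all tested genes 34.9% rose at the first of these steps and 31.2% fell at the second. Many of the 37 are copies from the 3 families, which can share reads, such as Gm5039 (16.4, 152, 119 and 29.3 CPM at days 0, 2, 4 and 6). Duxf3 is also counted among the activators below. A gene scarce at day 0, such as Trim43a (0.0875 CPM), could be tested only through later days. The autophagy receptor gene Calcoco2 rose from 47.8 to 165 CPM at day 2 and fell to 64.7 CPM at day 4. Gm12794 went from 8.88 to 88.2 CPM and Gm13119 from 3.13 to 42.0 CPM between days 0 and 2. Ddit4l (-0.14, adjusted p = 0.33) and Gm6763 (4.44 ± 2.28, adjusted p = 0.117) did not pass at day 2. Slc34a2 (1.41, adjusted p = 2.27e-10) and Trim43a (0.80, adjusted p = 0.0238) rose from day 2 to day 6, against the others. All 4 genes were singled out after their values were seen.

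Of 12 tested activators of the programme, 6 rose and 4 fell to day 2, beside 34.9% and 33.2% of all tested genes. Duxf3, the symbol of Dux in this table and itself a gene of a repeated array, was at 1.27 CPM at day 0 and 6.35, 6.39 and 4.88 CPM at days 2, 4 and 6. It rose to day 2 (log2 2.30 ± 0.24, adjusted p = 7.58e-11), and its difference between days 6 and 2 was -0.37 (adjusted p = 0.047), when the medians of the 6 genes and of the Zscan4 family were -1.82 and -1.91. Dppa2 went from 69.5 to 97.9 CPM at day 2 and 36.3 CPM at day 6, and its partner Dppa4 from 227 to 226 and then 57.5 CPM. Nelfa, encoding a subunit of the negative elongation factor, rose from 53.8 to 93.6 CPM at day 2 (adjusted p = 9.71e-17). Dppa3, encoding a maternal factor, went the other way, from 16.2 to 3.36 CPM at day 2 (adjusted p = 3.66e-18), and Prdm14 fell from 26.1 to 4.14 CPM. Tbx3 fell slightly, from 129 to 111 CPM (adjusted p = 0.000185), which did not pass with library size alone (adjusted p = 0.103), and Gata2 did not pass at day 2 (1.09 and 0.953 CPM). Zscan4c, also in the Zscan4 list, rose from 2.15 to 32.7 CPM.

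Of 36 tested repressors of the programme, 13 rose, 14 fell and 9 did not pass from day 0 to day 2 (median -0.03), where 34.9% of all tested genes rose and 33.2% fell, so the counts are near the background. With library size alone 17 rose and 12 fell (median 0.10). Rif1 fell from 324 to 175 CPM (adjusted p = 3.08e-21), and the maintenance DNA methyltransferase gene Dnmt1 fell from 1100 to 600 CPM (adjusted p = 2.27e-19) with its partner Uhrf1, which fell from 428 to 306 CPM. Mga (153 to 110 CPM), Chaf1b (58.2 to 43.0 CPM) and Chaf1a (265 to 210 CPM), the last pair encoding subunits of a chromatin assembly factor, fell as well. E2f6 (22.9 to 43.8 CPM), the H3K9 methyltransferase gene Ehmt2 (142 to 193 CPM), Zmym2 (30.1 to 44.4 CPM), Setdb1 (72.1 to 82.5 CPM), Smchd1 (129 to 142 CPM), Kdm1a (188 to 202 CPM) and Lin28a (36.7 to 84.5 CPM) rose, that of Kdm1a not with median-ratio (adjusted p = 0.0506) or upper-quartile factors (0.0637). Trim28 (294 and 288 CPM), Hdac1 (187 and 174 CPM) and Pcgf6 (39.8 and 36 CPM) did not pass at day 2, although Trim28 was higher with library size alone (0.10, adjusted p = 0.0413) and Hdac1 lower with median-ratio (-0.11, 0.0431) or upper-quartile factors (-0.11, 0.0339).

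From day 0 to day 2 the pluripotency genes fell. Pou5f1 was at 1470, 655, 352 and 291 CPM, Nanog at 276, 82.9, 22.1 and 8.68 CPM and Sox2 at 716, 181, 125 and 67.7 CPM at days 0, 2, 4 and 6. Esrrb was at 307, 71.5, 28.1 and 18 CPM. Tdgf1, which encodes a Nodal co-receptor, fell from 528 to 12.2 CPM and then rose to 22 CPM at day 4 and 50.4 CPM at day 6 (day 6 against day 2, log2 2.04, adjusted p = 2.8e-25). Among fibroblast markers Col3a1 was at 0.624, 0.348, 8.98 and 79.5 CPM, Col1a1 at 5.89, 2.97, 6.91 and 36.8 CPM, Col1a2 at 1.88, 12.9, 14.8 and 49.8 CPM and Thy1 at 11.6, 1.58, 0.814 and 0.555 CPM. Of the oocyte markers Zar1 rose from 0.250 to 2.01 CPM at day 2, and Zp3 had 1.25 and 0.805 CPM. The part of these changes in the levels of the 6 genes was not tested.

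**Figure D4:**
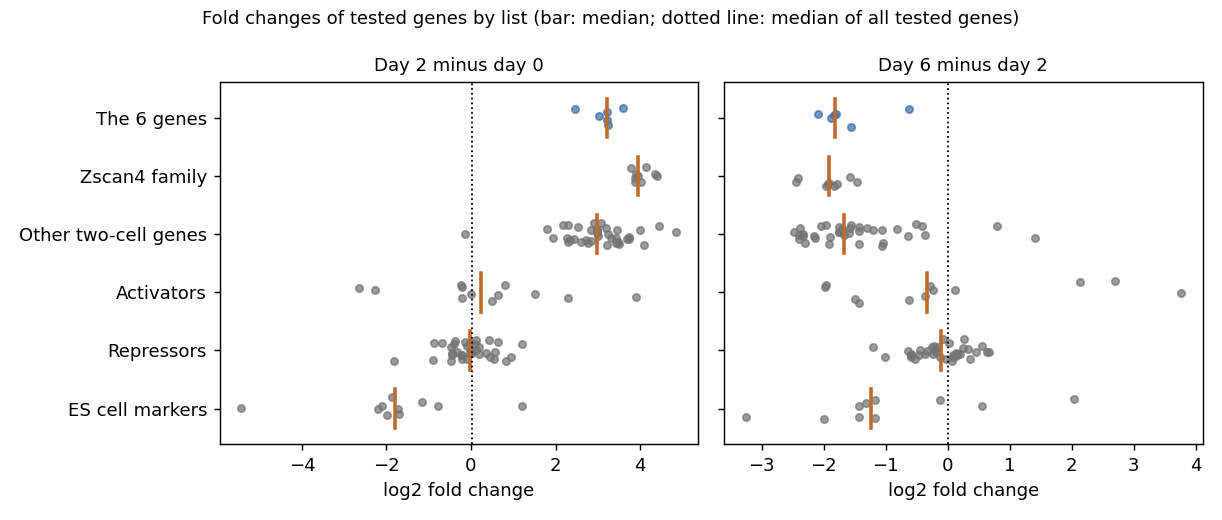
Fitted log2 changes (horizontal axis) from day 0 to day 2 and from day 2 to day 6 for the 6 genes and for the tested genes of 5 lists, each point a gene, with the list median as a bar and the median of all tested genes as a dotted line. The 6 genes, the Zscan4 family and the other two-cell genes lie mostly to the right in the first panel and mostly to the left in the second, with Ddit4l (-0.14) left of the dotted line in the first, while the repressors spread around the dotted line.

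The genes whose pattern over the 12 libraries was most like the mean of the 6, among 16415 candidates, were ranked by Pearson correlation of log2 CPM, as a description. The 12 closest were Gm12800 (0.995), Gm1995 (0.995), Bzw1 (0.994), Zscan4-ps1 (0.994), Atp4b (0.993), Gm5580 (0.992), Usp17lc (0.991), AF067061 (0.991), Zscan4a (0.991), Taf1b (0.990), Zscan4-ps3 (0.990) and Usp17ld (0.989). Of these, 3 are Zscan4 genes and 3 are copies within the Tcstv or Usp17l families. Bzw1 and Taf1b are widely expressed and moved far less in size. Bzw1 went from 216 to 362 CPM between days 0 and 2, and Taf1b, encoding a subunit of the RNA polymerase I factor SL1, from 54.6 to 106 CPM.

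Taken one gene at a time, the closest were Gm12794 (0.998), Gm4340 (0.995) and Ccdc170 (0.994) for Usp17le, and Gm6351 (0.993), Usp17lc (0.983) and Gm1995 (0.975) for Tcstv1. For Tcstv3 they were Gm12789 (0.972), Tmem150c (0.964) and Skida1 (0.963). Dynll2, a dynein light chain gene that went from 170 to 316 CPM at day 2 and 350 CPM at day 4, was the closest to both BB287469 (0.973) and Zfp352 (0.981). Gm21936 (0.969) and Gm4971 (0.968) followed for BB287469, and Magel2 (0.980) and Gm21319 (0.977) for Zfp352. For Tmem92 they were Eif1b (0.990), Fundc1 (0.989) and Zscan4e (0.988), and the first 2 of these, like Tmem92, kept most of their level to day 6, with Eif1b at 51.8 and 45.9 CPM and Fundc1 at 21.7 and 19.1 CPM at days 2 and 6.

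Neighbouring genes with counts were followed on each side. At Tcstv1, D13Ertd608e, 46818 bp away, rose to day 2 (2.20 ± 0.46, adjusted p = 5.56e-05), as did the Tcstv copy Gm21761, 17310 bp away (2.90 ± 0.11, adjusted p = 2.8e-24). At Tcstv3 the copy BC147527, 8099 bp away, rose (3.86 ± 0.31, adjusted p = 5.77e-14), and no annotated gene with counts lay on the other side. Tmem92 is flanked by 2 pseudogenes that both rose: Gm11546, 14346 bp away, from 0.543 to 5.93 CPM (3.44 ± 0.28, adjusted p = 1.19e-13), and Gm11545, 19454 bp away, from 0.446 to 1.38 CPM (1.57 ± 0.41, adjusted p = 0.000896). From day 2 to day 6 Gm11546 fell (-0.80, adjusted p = 9.03e-05) and Gm11545 rose (0.67, adjusted p = 0.0256). Over all tested genes 34.9% rose from day 0 to day 2. D13Ertd608e, BC147527, Gm11545 and Gm11546 had at most 0.543 CPM on average at day 0 and could be tested only through later days. Their rises are thus not independent of that filter. The neighbours of Usp17le (Gm6593 and Gm4887), of BB287469 (Gm48149 and Gm48151) and of Zfp352 (Dmrta1 and Gm12633) had a mean of at most 0.656 CPM on any day and too few counts to be tested, whereas the genes between them rose.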

How the data were processed

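RNA was measured in 12 libraries, 3 at each of days 0, 2, 4 and 6. The authors deposited raw counts per gene. Per the labels' protocols, RNA was taken with a MiniBEST kit, was polyadenylated, and went into libraries by a SMARTER mRNA-Seq kit. The submitters' processing notes name HISAT2 2.1.0, FastQC 0.11.7, DESeq2, featureCounts 2.0.1 and mm10. Strandedness, read length, the annotation release and the treatment of reads with several positions are not given in the sources used here. Of 55335 gene IDs, 55154 matched GENCODE M21.

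Tests were run in edgeR 4.0.16 (R 4.3.3), with filterByExpr by day (16468 genes kept), TMM, and a robust quasi-likelihood fit over the 12 libraries that has 1 coefficient for each day. Tests were two-sided, p-values were adjusted by Benjamini-Hochberg over all genes tested, and a gene changed where the adjusted p was under 0.05. The SE is the size of the log2 fold change divided by the square root of F. The scripts were tested on simulated counts. Replicate numbers showed no sign of pairing the libraries. Residuals of libraries of different days correlated between -0.038 and 0.034 with the same number and between -0.032 and 0.034 with different numbers. Whether they were paired by design cannot be told from this.

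Copies are genes whose transcripts matched at least 80% of a gene's coding sequence at 80% identity or more. Each family sum takes the copies on the gene's own chromosome. Likeness used log2 CPM with a prior count of 2, among genes with at least 1 CPM on average on their highest day. The genes named are the 6, the 12 most like their mean and the 3 most like each, up to 4 of each list with the smallest F-test p, 23 fixed regulators and the nearest genes with counts, plus copies named for their identity and 4 two-cell genes (Ddit4l, Gm6763, Slc34a2, Trim43a) named after their values were seen. Alternatives changed scaling, filter, test, depth, threshold and libraries. The 6 genes and the lists were chosen with earlier results of these data known.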

Additional observations from a re-analysis of the deposited data

How the results depend on the processing

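Tests of the 6 genes were repeated with median-ratio and upper-quartile factors, library size alone, other filters, DESeq2, limma-voom, the 6 libraries of a comparison alone, counts thinned to the smallest library, a threshold of 0.01, family sums, a replicate block, without Gm42418 and mitochondrial genes, and without each library. Family sums covered Usp17le, BB287469, Tcstv1 and Tcstv3 only. In the libraries of days 6 and 0 alone, Zfp352 did not pass the filter and was not tested. Of 887 values, 856 kept direction and call, 29 lost the call, 1 gained it and 1 turned. The one that turned was BB287469 from day 2 to day 4, which was -0.10 ± 0.05 (adjusted p = 0.0604) as a family sum. All calls lost were in day 6 against day 0 (BB287469, Tcstv3) or day 4 against day 2 (BB287469, Tcstv1, Tmem92). Besides leaving out libraries, Tcstv1 at the latter step lost its call with DESeq2 (adjusted p = 0.127) and thinned counts (0.0653), and Tmem92 with DESeq2 (0.144), thinned counts (0.135), no filter (0.0648) and library size alone (0.0528). At 0.01, BB287469 at both steps, Tcstv1 and Tmem92 were lost. All 144 alternative counts of changed genes were within 1.5 times the count reported. With library size alone the median of all genes was 0.149, 0.141 and 0.121 for days 2, 4 and 6 against day 0, beside 0.02, 0.01 and 0.02 with TMM. Depth limits the day 0 levels, where Zfp352 rests on 2 to 4 counts a library.

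With the replicate number as a block, counts of changed genes were 11195, 12075, 12630, 8180, 7004 and 10456, against 11216, 12119, 12663, 8245, 7065 and 10474 without, for days 2, 4 and 6 against 0, day 4 against 2, day 6 against 4 and day 6 against 2. Among the 6 genes the replicate block changed 1 call, that of Tmem92 from day 2 to day 4 (0.23 ± 0.10, adjusted p = 0.055).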
